A study of Mus musculus with 4 samples.

Results

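The genes described here encode chemokines, interleukins, colony-stimulating factors and tumour necrosis factor (TNF) superfamily ligands, together with Nfkbia, Tnfaip3 and Ptgs2, which inflammatory signals induce in many cells. They were taken by gene symbol, without use of their values, but the set was chosen with earlier results of these data known. Of 14860 genes with a single symbol on the array, 82 were members, each with 1 transcript cluster, the array's gene-level probe group. The arrays were Affymetrix Mouse Exon 1.0 ST arrays, 2 for p63 knockout and 2 for wild-type cultures of bladder epithelial stem cells taken from newborn mice of strain C57BL/6j. Every culture had a feeder layer of 3T3 cells, a mouse fibroblast line, and RNA came from picked colonies. The comparison asks how transcripts of bladder epithelial colonies differ without p63, a transcription factor of basal epithelial cells encoded by Trp63. The labels do not say whether the 2 arrays of a group came from separate animals, so the spread between them may be technical, and they do not name the disrupted part of Trp63. Feeder and epithelial transcripts come from the same species and cannot be told apart by sequence on the array, and fewer cells of a type cannot be told apart from less RNA per cell.

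Chemokines are small secreted proteins that attract leukocytes through G protein-coupled receptors, and interleukins and TNF superfamily ligands signal through other receptor families to JAK and STAT proteins or to the transcription factor NF-kappaB. NF-kappaB is held in the cytoplasm by inhibitors such as the product of Nfkbia and switched off by Tnfaip3, both of which it induces in turn. In the bladder, the epithelium is itself a known source of neutrophil chemokines and of Il6 during infection, and fibroblasts and resident leukocytes produce many of the same proteins.

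Trp63 was at 4.60 and 4.74 log2 units of intensity on the knockout arrays and at 8.98 and 8.99 on the wild-type arrays (limma adjusted p = 0.015), a difference in the direction of the labels. The correlation over all clusters was 0.932 between the knockout arrays and 0.977 between the wild-type arrays. Olfactory receptor genes are normally silent outside the nose, and the 95th percentile of their 719 clusters, 5.08, is used as a guide to background. All 12 measured epithelial markers lay above this guide on every array. Of 21 fibroblast markers, 19 or 20 lay above it on each array, and their medians were 7.10 and 7.81 on knockout arrays 1 and 2 and 7.71 and 7.23 on wild-type arrays 1 and 2. Of 16 leukocyte markers, 2 to 4 lay above it. Their summed linear intensity was 699 and 587 on the knockout arrays and 728 and 720 on the wild-type arrays. In the wild type Cd53, the brightest of them there, weighed most in this sum. The median difference of the 16, knockout minus wild type, was 0.34, against 0.27 for all clusters at or below the guide. Ptprc, the pan-leukocyte marker, was between 3.15 and 3.73 on all 4 arrays. Cd53, a leukocyte tetraspanin, was at 5.97 and 6.40 in the knockout and 8.21 and 8.51 in the wild type. The macrophage marker Cd68 differed in the other direction, at 8.58 and 8.12 in the knockout and 7.68 and 7.255 in the wild type. The epithelial markers were lower in the knockout by a median difference of -0.80, the 8 basal urothelial markers by -3.63 and the 8 superficial ones by -3.73, except that Krt20, a superficial marker, was higher. Of 9 endothelial markers 1 lay above the guide on each knockout array and 5 and 4 on the wild-type arrays, with Pecam1 at 4.63 and 4.29 against 6.94 and 5.67. The part of these cell types in the differences below was not tested.

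Most of the cytokine genes were dim. Only 15 of the 82 had a mean over the 4 arrays above the guide: Ptgs2, Il33, Ppbp, Cxcl16, Ccl28, Ccl9, Ccl25, Ccl2, Ccl7, Tnfsf9, Tnfsf11, Nfkbia, Csf1, Il34 and Cxcl14. Among all 23332 clusters the share was 50.2%. The member means ran from 3.06 to 8.06. None of the 82 passed the limma test at an adjusted p under 0.05 over all clusters, against 0.141% of all clusters called higher and 0.386% called lower in the knockout. At an unadjusted p under 0.05, 19 members were higher and 3 lower, or 23.2% and 3.66%, where the shares of all clusters were 14.6% and 7.7%. At least 2-fold differences with no overlap between groups were found for 9 higher members, or 11%, and 3 lower ones, or 3.66%, against 6.96% and 3.67% of all clusters.

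The levels of dim genes were shifted as a whole in this table. The median log2 difference (knockout minus wild type throughout) was 0.37 for the members, 0.12 for all clusters and 0.47 for the olfactory receptors, of which 26% were higher at an unadjusted p under 0.05. For the 67 members at or below the guide by their mean the median difference was 0.34, and for all clusters in that range it was 0.27. The shares higher at an unadjusted p under 0.05 were 22.4% and 19.4%, so the dim members stood close to other dim clusters. The 15 members above the guide include Csf1 and Il34, whose wild-type means of 4.86 and 4.94 were below it. No conclusion is therefore drawn from a count or median over the 15. After quantile normalization, which removed the shift over all clusters (median 0.003), the member median was 0.20 and 11 members were higher and 4 lower at an unadjusted p under 0.05, against 8.91% and 9.14% of all clusters. The count of higher members was 4 without wild type replicate 2, 5 without wild type replicate 1, 25 without p63 knockout replicate 1 and 29 without p63 knockout replicate 2. The shares of all clusters in these settings were 6.56%, 5.53%, 17.9% and 16.5%, so with a wild-type array left out the counts of 4 and 5 among 82 members were close to the share of all clusters.

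**Figure D1:**
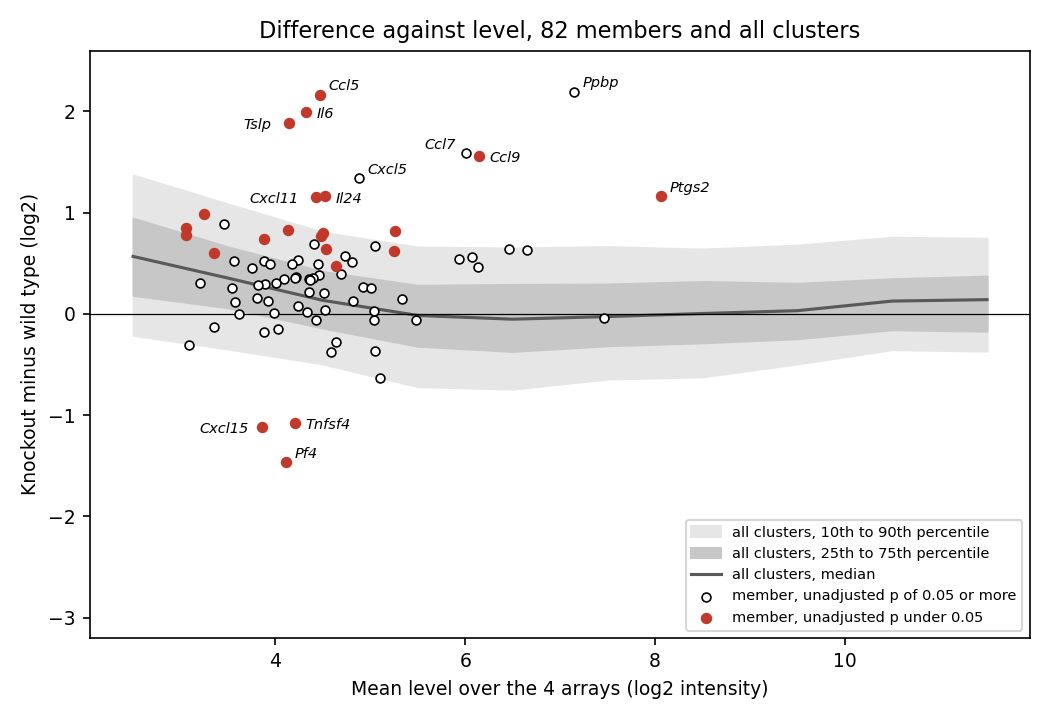
Log2 difference of each of the 82 genes (knockout minus wild type) against its mean level over the 4 arrays, with grey bands for the spread of all clusters in bins of 1 log2 unit. Members above the outer band of all clusters at their level include Ppbp, Ccl7, Ccl9 and Ptgs2, and the dimmer Ccl5, Il6, Tslp, Cxcl5, Il24 and Cxcl11. Members below it include Tnfsf4, Cxcl15 and Pf4. The grey median rises to 0.57 in the dimmest bin.

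A group of CXC chemokine genes lies close together on chromosome 5, in the order Cxcl5, Ppbp, Pf4, Cxcl15, Cxcl1 and Cxcl2 among the members. Ppbp, the precursor of the platelet chemokine Cxcl7, was at 10.41 on knockout array 1 and 6.08 on knockout array 2, and at 6.40 and 5.70 on the wild-type arrays. Knockout array 1 alone was high, and the other knockout array fell between the wild-type arrays. The mean difference of 2.197 had a standard error (SE) of 1.52 (adjusted p = 0.45), and without p63 knockout replicate 1 it was 0.03. Its neighbour Cxcl5, a neutrophil attractant made by epithelia, was also highest on knockout array 1, at 6.72 and 4.38 in the knockout and 4.17 and 4.26 in the wild type, without overlap. Its difference was 1.34 (SE 0.82, adjusted p = 0.40), and 0.17 without p63 knockout replicate 1. Cxcl1 was at 5.74 and 5.04 against 4.59 and 4.84, a difference of 0.67 (adjusted p = 0.28) with no overlap. Cxcl2 was at 3.56 on knockout array 1, below both wild-type values of 4.30 and 4.18, and at 5.36 on knockout array 2, above them. Its mean difference of 0.22 therefore covers arrays on opposite sides of the wild type, and it was -0.68 without p63 knockout replicate 2.

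Pf4 and Cxcl15, between these genes on the chromosome, differed in the other direction. Pf4, platelet factor 4, was at 3.16 and 3.60 in the knockout and 5.15 and 4.53 in the wild type, 2.76-fold lower (difference -1.46, SE 0.31, adjusted p = 0.12). Cxcl15, a chemokine first described in mouse lung, was at 3.29 and 3.30 against 4.53 and 4.30, 2.17-fold lower (difference -1.12, SE 0.18, adjusted p = 0.093). The groups did not overlap for either gene, and both differences kept their sign under all alternatives run. Both knockout means were below the guide, as were both wild-type means, so these are differences between dim signals, opposite to the shift of dim clusters. Cxcr2, the receptor through which Cxcl1, Cxcl2, Cxcl5 and the Ppbp product attract neutrophils, was at 4.56 and 4.45 in the knockout and 6.30 and 6.25 in the wild type, a difference of -1.78 (SE 0.16, adjusted p = 0.052).

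**Figure D2:**
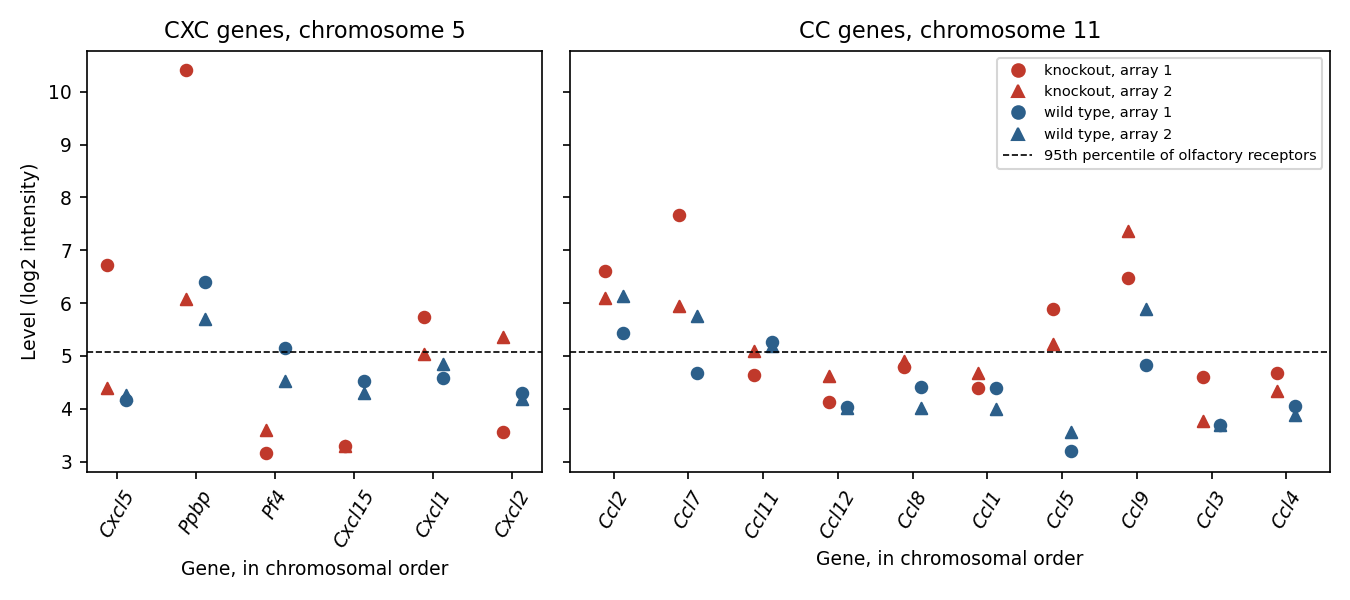
Levels of the CXC genes on chromosome 5 and the CC genes on chromosome 11 (log2 intensity) on the 4 arrays, in chromosomal order. Red marks knockout and blue wild type, circles array 1 and triangles array 2, and the dashed line is the guide at 5.08. Ppbp and Cxcl5 are high on knockout array 1 alone, and both Ccl5 knockout values lie above both wild-type values.

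CC chemokines, which attract monocytes, lymphocytes and eosinophils, numbered 17, and 16 of them had a difference above 0, or 94.1%, with a median of 0.50. Of all clusters at or below the guide 72.4% had a difference above 0, and of the olfactory receptors 79.6%, with a median of 0.47. Ccl5, which draws T cells and monocytes, was at 5.88 and 5.23 in the knockout and 3.21 and 3.56 in the wild type. Both knockout values were above the guide and above both wild-type values. The difference was 2.17, or 4.49-fold (SE 0.30, 95% interval 1.35 to 2.99, adjusted p = 0.081), and it lay between 1.84 and 2.49 over the alternatives. Ccl9, a mouse ligand of Ccr1 next to Ccl5 on chromosome 11, was at 6.48 and 7.37 against 4.83 and 5.90. The groups did not overlap, although wild-type array 2 came close to knockout array 1, and the difference of 1.56 (SE 0.51) had an adjusted p of 0.20 and was 1.03 without wild type replicate 1. Its neighbours Ccl3 and Ccl4 were dim, with differences of 0.49 and 0.54 (adjusted p = 0.43 and 0.23).

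The monocyte chemokines Ccl2 and Ccl7, ligands of Ccr2, open the other chromosome 11 group. Ccl7 was at 7.66 and 5.94 in the knockout and 4.67 and 5.76 in the wild type, a difference of 1.58 (SE 0.72, adjusted p = 0.29). It was 0.725 without p63 knockout replicate 1, 2.444 without p63 knockout replicate 2 and 1.043 without wild type replicate 1. Ccl2 was at 6.61 and 6.09 against 5.44 and 6.13, so the groups overlapped (difference 0.57, adjusted p = 0.39). For both genes knockout array 1 was the highest and wild-type array 1 the lowest of the 4. Ccl11, the eosinophil attractant eotaxin, was the only CC member with a difference below 0, at 4.64 and 5.09 against 5.26 and 5.20 (difference -0.36, adjusted p = 0.40). Ccl28 and Ccl25 were among the brightest members. Ccl28, made by mucosal epithelia, was at 6.42 and 7.13 against 6.34 and 5.94 (difference 0.64, adjusted p = 0.33). Ccl25, known from thymus and gut epithelium, was at 6.64 and 6.10 against 6.00 and 5.81 (difference 0.46, adjusted p = 0.35). Ccl20, the ligand of Ccr6 that epithelia make on stimulation, was dim in both groups at 3.99 ± 0.31 and 3.86 ± 0.19 (mean ± SD, n = 2), and its difference of 0.13 was -0.12 after quantile normalization.

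Among the remaining chemokines, Cxcl11, an interferon-induced ligand of Cxcr3, was at 4.65 and 5.35 in the knockout and 3.87 and 3.83 in the wild type. The groups did not overlap, and the difference was 1.15 (SE 0.29, adjusted p = 0.15). The C57BL/6 background of the epithelial cells is known to carry a frameshift in this gene. A Cxcl11 transcript from these cells therefore does not stand for a working chemokine. Feeder and epithelial transcripts cannot be told apart on the array. The part of the feeder cells in the Cxcl11 signal was not tested. The other interferon-induced members differed less, Cxcl9 by 0.47 (adjusted p = 0.21) and Cxcl10 by -0.06 (adjusted p = 0.91). Cxcl16, a membrane-bound chemokine, was at 7.26 and 6.67 against 6.31 and 6.37 (difference 0.63, adjusted p = 0.26). Cxcl12, the stromal ligand of Cxcr4, was at 4.68 and 5.45 against 4.60 and 4.51, highest on knockout array 2 and without overlap (difference 0.51, adjusted p = 0.39).

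Tslp had the lowest adjusted p of all members. Tslp is a cytokine released by epithelia that acts on dendritic cells and innate lymphocytes. It was at 5.25 and 4.93 in the knockout and 3.16 and 3.24 in the wild type. All 4 values were well separated by group, although the knockout mean of 5.09 was close to the guide. The difference was 1.89, or 3.71-fold (SE 0.19, 95% interval 1.36 to 2.42, adjusted p = 0.058). The adjusted p was 0.034 after the dimmest 25% of clusters were left out and 0.048 with an intensity trend in the variance prior. It was 0.078 after quantile normalization and 0.14 with the replicate number as a block. With either wild-type array left out it was higher than all of these, in a fit with a single array in that group. The difference lay between 1.67 and 2.045 over the alternatives. The filter on dim clusters used the mean over the 4 arrays, which the knockout values raised. The wild-type mean of 3.20 was below its cutoff, so no conclusion is drawn from the filtered call. With the intensity trend 114 of 23332 clusters were called higher, against 33 without it. Il7r, which with Crlf2 forms the Tslp receptor, was at 4.19 and 4.28 against 3.51 and 3.72 (difference 0.62, adjusted p = 0.17).

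Il6, the inflammatory cytokine that signals through Il6st, was at 4.52 and 6.12 in the knockout and 3.38 and 3.26 in the wild type. Both knockout values were higher than both wild-type values, and knockout array 2 was 1.60 above knockout array 1. The difference was 1.998, or 3.99-fold (SE 0.58, adjusted p = 0.17), and 1.20 without p63 knockout replicate 2. Of the other cytokines that use Il6st, Lif was at 4.61 and 4.48 against 3.95 and 3.49 (difference 0.83, adjusted p = 0.17). Il11 was at 4.32 and 4.48 against 4.86 and 4.68, lower in the knockout with no overlap (difference -0.37, adjusted p = 0.31).

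The promoters of Il6, the paired genes Cxcl1 and Cxcl2, Ccl9 and Ppbp show how these genes differ at a motif bound by NF-kappaB. Sequences are from RefSeq (GRCm38.p6), which matched 58 of the 82 members. The motif searched was GGG, any 2 bases, then TTTCC, on both strands, in windows of 250 bases before to 50 after each start. It was found in 10 of the 58 matched members, or 17.2%, and in 1.89% of all genes in the table (1.63% of its 32851 windows). Each line gives the 120 bases just before the annotated start, with motif matches in capitals, and the Ppbp window held no match.
Il6, chr5:30012994-30013113, + strand: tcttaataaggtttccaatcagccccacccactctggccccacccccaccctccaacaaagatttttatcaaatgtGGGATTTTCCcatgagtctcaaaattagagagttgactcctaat
Cxcl1, chr5:90891125-90891244, + strand: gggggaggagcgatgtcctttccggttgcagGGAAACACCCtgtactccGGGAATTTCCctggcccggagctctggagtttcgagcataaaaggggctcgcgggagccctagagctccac
Cxcl2, chr5:90903779-90903898, + strand: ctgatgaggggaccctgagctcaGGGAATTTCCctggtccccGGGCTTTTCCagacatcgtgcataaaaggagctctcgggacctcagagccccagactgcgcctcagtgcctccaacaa
Ccl9, chr11:83578637-83578756, - strand: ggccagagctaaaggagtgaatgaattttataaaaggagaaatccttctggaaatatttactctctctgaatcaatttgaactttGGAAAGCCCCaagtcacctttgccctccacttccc
Ppbp, chr5:90768398-90768517, + strand: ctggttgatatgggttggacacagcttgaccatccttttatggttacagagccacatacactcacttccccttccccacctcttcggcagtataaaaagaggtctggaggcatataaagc

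Cxcl1 and Cxcl2 held 2 matches each, of which GGGAATTTCC occurs in both. The other members with a match were Ccl20, Csf1, Il16, Il9, Nfkbia and Tnfaip3. Their differences, with those of the 4 genes above, ran from -0.27 for Il16 to 1.998 for Il6, with a median of 0.47, and the 48 matched members without the motif had a median of 0.32. A match describes the sequence and does not show that a factor binds there.

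Nfkbia and Tnfaip3, the feedback inhibitors of NF-kappaB, gave small differences. Nfkbia was at 5.76 and 5.06 in the knockout and 5.29 and 5.22 in the wild type, and the wild-type values fell between the knockout values (difference 0.15, 95% interval -0.64 to 0.94, adjusted p = 0.79). Tnfaip3 was at 5.02 and 5.09 against 4.775 and 4.803, a difference of 0.26 (95% interval -0.17 to 0.70, adjusted p = 0.40) with no overlap. Tnf, the prototypic inducer of both, was dim on all arrays, at 3.45 and 3.81 against 3.32 and 3.72.

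Ptgs2, the inducible cyclooxygenase of prostaglandin synthesis, was the brightest member. It was at 8.33 and 8.96 in the knockout and 7.54 and 7.42 in the wild type. The groups did not overlap, and every value was well above the guide. The difference was 1.16, or 2.24-fold (SE 0.27, 95% interval 0.42 to 1.91, adjusted p = 0.14), and it lay between 0.84 and 1.48 over the alternatives. Among 17 other genes of prostaglandin synthesis and response none was called, with 0 higher and 2 lower at an unadjusted p under 0.05, where the shares of all clusters were 14.6% and 7.7%. The lower genes were Hpgd, which degrades prostaglandins, at 3.85 and 4.54 against 7.09 and 6.52 (difference -2.61, adjusted p = 0.076), and the prostaglandin E synthase Ptges, at 6.60 and 6.69 against 7.58 and 7.35 (difference -0.81, adjusted p = 0.13).

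Of the IL-1 family ligands, Il33, a nuclear alarmin of epithelial and stromal cells, was the second brightest member. It was at 8.22 and 6.67 in the knockout and 7.40 and 7.56 in the wild type. The knockout arrays lay on either side of the wild-type arrays, so the difference of -0.04 had a 95% interval of -1.56 to 1.49, and it was 0.74 without p63 knockout replicate 2. Il1a, Il1b and Il18 had means below the guide, at 4.61 ± 0.20, 3.99 ± 0.56 and 4.89 ± 0.47 in the knockout and 4.41 ± 0.21, 3.98 ± 0.08 and 4.49 ± 0.30 in the wild type. Their differences of 0.21, 0.01 and 0.39 had adjusted p of 0.59, 0.99 and 0.50, and that of Il1b was -0.25 after quantile normalization.

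Of 12 measured IL-1 family regulators and inflammasome genes, 1 was called, lower. Pycard, the ASC adaptor that joins inflammasome sensors to caspase 1, was at 5.38 and 5.14 in the knockout and 8.11 and 8.21 in the wild type, and fell 7.45-fold (difference -2.90, SE 0.18, adjusted p = 0.032). With any 1 array left out no cluster on the array was called, so neither this call nor those of Trp63 and Lcn2 held there. Il1rn, the IL-1 receptor antagonist, was at 5.77 and 5.93 against 7.17 and 7.13 (difference -1.30, adjusted p = 0.073), and the cytosolic DNA sensor Aim2 was at 6.33 and 6.40 against 7.54 and 7.89 (difference -1.35, adjusted p = 0.084). Il1f6, Il1f8 and Il1f9, which encode the IL-36 cytokines of stratified epithelia, were higher with no overlap. Il1f6 was at 5.58 and 4.71 against 3.49 and 3.56, and Il1f9 at 5.81 and 4.42 against 3.45 and 3.48, each highest on knockout array 1 (differences 1.62 and 1.65, adjusted p = 0.12 and 0.18). Il1f8 was at 3.24 and 3.73 against 2.00 and 1.98, all below the guide (difference 1.499, adjusted p = 0.091). The list had 5 genes higher and 3 lower at an unadjusted p under 0.05 (41.7% and 25%, against 14.6% and 7.7% of all clusters). Its median difference was 0.36, against 0.12 for all clusters, and it was 0.10 after quantile normalization. The list was chosen with earlier results of these data known, so no conclusion is drawn from its shares.

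Most other interleukins were dim. Il24, of the IL-10 family, was at 5.45 and 4.75 in the knockout and 3.91 and 3.98 in the wild type (difference 1.16, SE 0.29, adjusted p = 0.15), with no overlap and a knockout mean of 5.10, just above the guide. Il9 and Il3, known mainly from T cells, had differences of 0.98 and 0.85 (adjusted p = 0.20 and 0.13) between means that all lay below the guide. After quantile normalization these differences were 0.57 and 0.41. Of the 11 lymphoid interleukins 4 were higher at an unadjusted p under 0.05, or 36.4%, against 19.4% of all clusters at or below the guide. They were Il9, Il3, Il2 (difference 0.78, adjusted p = 0.13) and Il15 (difference 0.74, adjusted p = 0.15), all with means below the guide. In the IL-12 family (4 members) and the IL-17 family (6 members) the count was 0.

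All 4 growth factors of myeloid cells, Csf1, Csf2, Csf3 and Il34, had higher knockout values without overlap, as had 36.2% of all clusters. Csf1, the macrophage growth factor, was at 5.71 and 5.63 against 4.71 and 5.005 (difference 0.82, SE 0.19, adjusted p = 0.14), and Il34, which shares its receptor Csf1r, was at 5.35 and 5.77 against 4.98 and 4.89 (difference 0.62, adjusted p = 0.21). Csf2 and Csf3, of granulocytes and macrophages, were dim and highest on knockout array 2. Csf2 was at 3.27 and 4.53 against 3.12 and 2.89, and Csf3 at 3.68 and 4.61 against 3.59 and 3.65 (adjusted p = 0.34 and 0.44).

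In the TNF superfamily 3 of 10 members were higher and 1 lower at an unadjusted p under 0.05, against 14.6% and 7.7% of all clusters. Tnfsf4, the OX40 ligand that costimulates T cells, was the lower one, at 3.58 and 3.75 in the knockout and 4.53 and 4.95 in the wild type (difference -1.08, SE 0.22, adjusted p = 0.12). The 2 brightest were Tnfsf9, the 4-1BB ligand, at 6.01 and 6.41 against 5.61 and 5.71 (difference 0.55, adjusted p = 0.24), and Tnfsf11, the osteoclast differentiation factor RANKL, at 5.38 and 5.52 against 5.52 and 5.50 (difference -0.06, 95% interval -0.51 to 0.40).

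**Figure D3:**
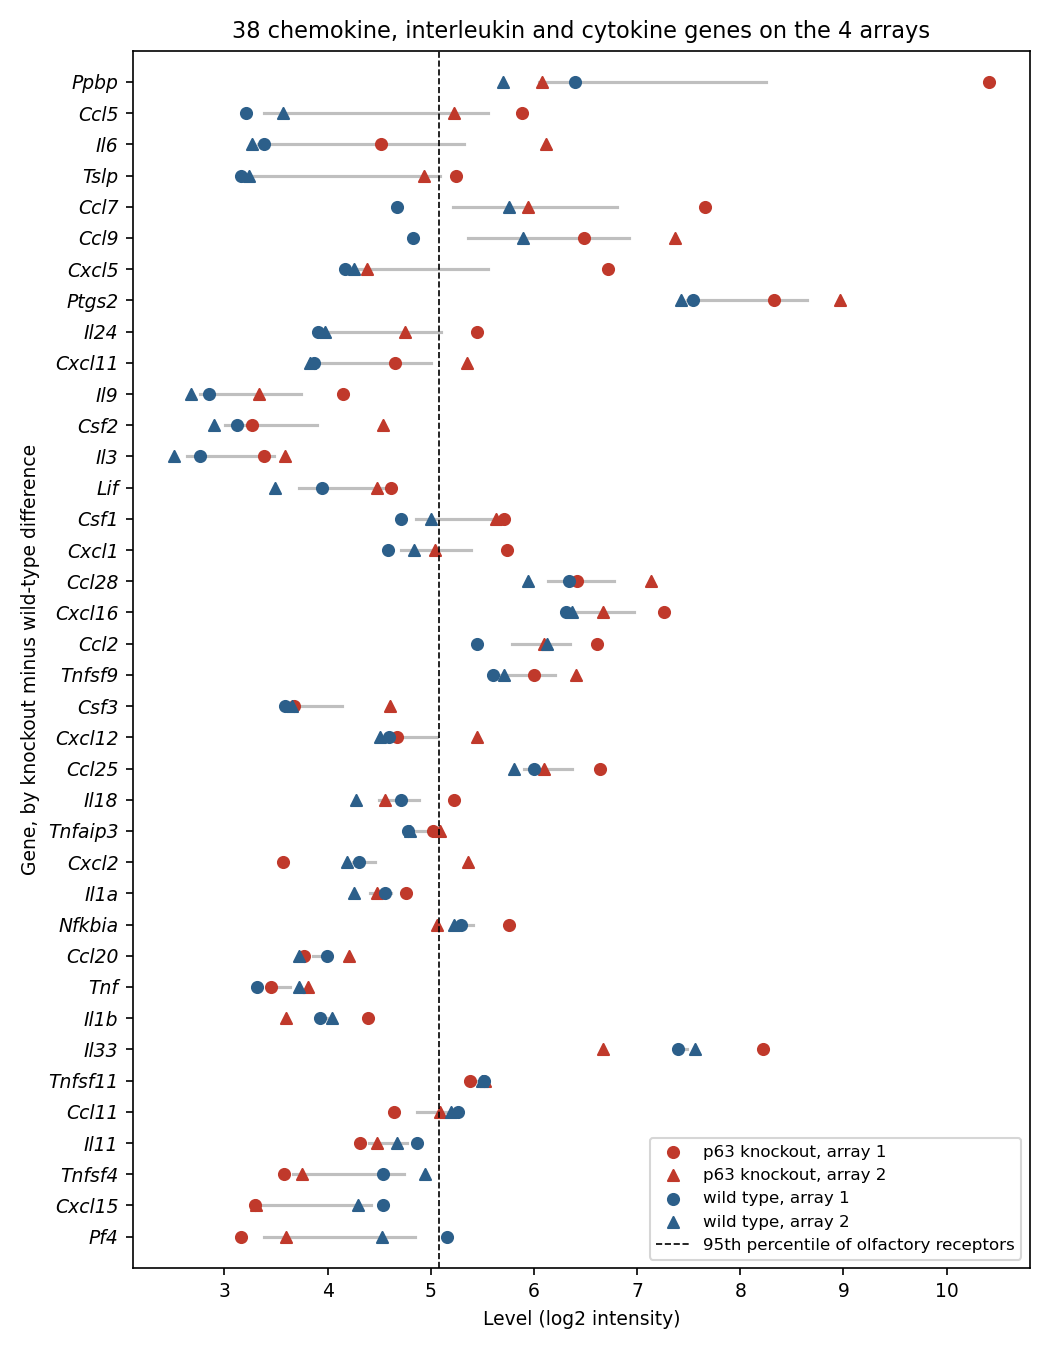
Log2 intensity of 38 genes on each of the 4 arrays, ordered by the knockout minus wild-type difference, with grey lines joining the group means and a dashed line at 5.08, the 95th percentile of olfactory receptor clusters. Red circles and triangles are knockout arrays 1 and 2, blue ones the wild-type arrays. Most wild-type values lie left of the dashed line, and the knockout values of Ppbp, Cxcl5, Cxcl2 and Il33 are far apart.

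The knockout arrays differed from each other in which cytokine genes were high. The gap between them was over 1 log2 unit for 9 members, or 11%, and for 11.5% of all clusters, so the members did not stand out in this respect. The gap between the wild-type arrays was over 1 for 3 members, Ccl7, Ccl9 and Cxcl13. On knockout array 1 Ppbp, Cxcl5, Ccl7, Il33, Il5 and Il17c were higher, and on knockout array 2 Il6, Csf2 and Cxcl2. Fibroblast markers were higher on knockout array 2 by a median of 0.51, and epithelial markers were higher on knockout array 1 by a median of 0.19. The part of these markers in the gaps was not tested.

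**Figure D4:**
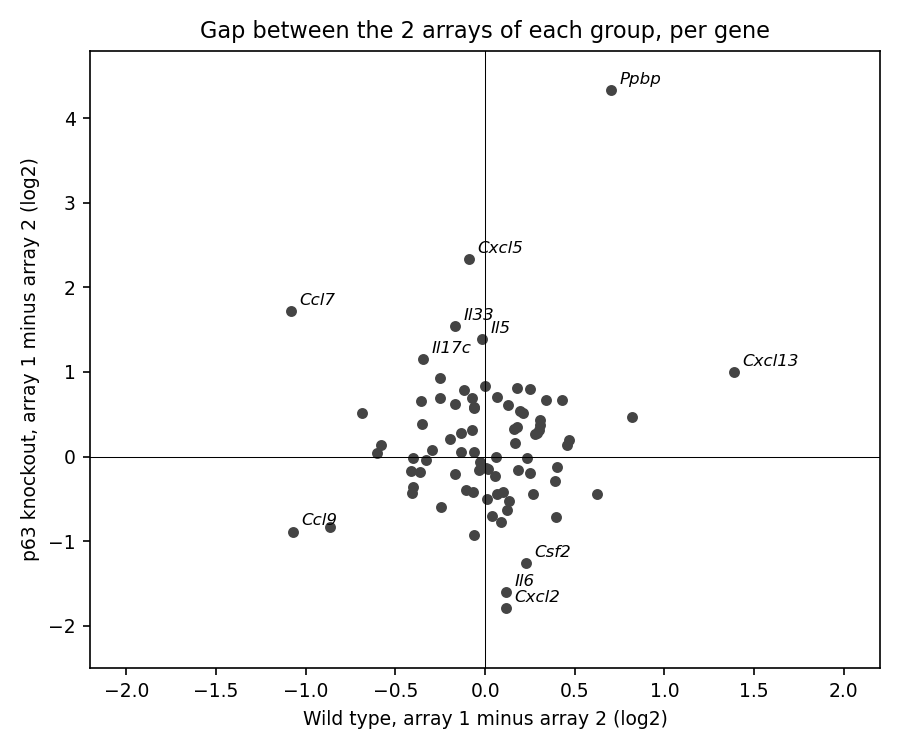
Each point is 1 of the 82 genes, with the gap between wild-type arrays 1 and 2 (log2) on the x axis and the gap between knockout arrays 1 and 2 on the y axis. Genes with a gap over 1 in either group are named, and Ppbp is farthest out, with a knockout gap of 4.33.

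Receptors and signalling genes were counted from lists. Of 22 chemokine receptors and 37 cytokine receptors none was called by limma. At an unadjusted p under 0.05, 3 chemokine receptors were higher and 3 lower, and 7 cytokine receptors were higher and 4 lower. The shares higher, 13.6% and 18.9%, were near the 14.6% of all clusters, and the shares lower, 13.6% and 10.8%, compare with 7.7%. Besides Cxcr2, the largest differences were those of Ccr4 (0.81, adjusted p = 0.18) and Ccr10 (-0.72, adjusted p = 0.20). Il1r2, the decoy receptor that binds IL-1 without signalling, was at 3.35 and 3.17 in the knockout and 5.84 and 6.72 in the wild type, the largest difference among the receptors (-3.02, SE 0.35, adjusted p = 0.065). Il18r1, a subunit of the IL-18 receptor, was at 7.30 and 7.21 against 6.38 and 6.03 (difference 1.05, adjusted p = 0.11), and Il2ra was dim and higher by 0.93 (adjusted p = 0.11). The median difference was -0.12 for chemokine receptors and 0.22 for cytokine receptors, against 0.12 for all clusters.

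Of 23 NF-kappaB subunits and regulators none was called, 3 were higher and 4 lower at an unadjusted p under 0.05 (13% and 17.4%, against 14.6% and 7.7% of all clusters), and the median was -0.06. The deubiquitinase Cyld, which restrains NF-kappaB, was higher by 0.96 (adjusted p = 0.11), and Tnfaip2 and Tnfaip8, both inducible by Tnf, were lower, with differences of -0.98 and -0.86 (adjusted p = 0.10 and 0.12). Of 22 Toll-like receptors and adaptors none was called and 4 were higher at an unadjusted p under 0.05, or 18.2% against 14.6%. Tlr4, the lipopolysaccharide receptor, was at 6.90 and 7.18 against 6.31 and 6.05, and its co-receptor Cd14 was at 7.62 and 6.36 against 6.22 and 6.20 (adjusted p = 0.14 and 0.39), while Tlr1 was dim and higher by 1.03 (adjusted p = 0.10). Of 19 JAK and STAT pathway genes none was called. At an unadjusted p under 0.05, 4 were higher and 1 lower, or 21.1% and 5.26%, against 14.6% and 7.7% of all clusters. Socs2, a feedback inhibitor of cytokine and growth hormone receptors, was at 8.64 and 8.68 against 6.98 and 6.90 (difference 1.73, SE 0.16, adjusted p = 0.053). Socs3, which Il6 and Lif are known to induce, was at 4.44 and 5.46 against 4.05 and 3.51 (difference 1.17, adjusted p = 0.22). Of its knockout values that of array 2 was the higher, as for Il6 but not for Lif, and a link between these genes was not tested. Jak2 was higher by 0.81 (adjusted p = 0.13).

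Acute phase and adhesion genes held the other call. Lcn2, an iron-siderophore carrier of stressed epithelia, was at 9.76 and 9.60 in the knockout and 6.35 and 6.79 in the wild type (difference 3.11, adjusted p = 0.036). Of the 17 measured genes of this list Lcn2 alone was called, or 5.88%, against 0.141% of all clusters called higher. The list was chosen with earlier results of these data known, so no conclusion is drawn from its shares. At an unadjusted p under 0.05, 8 of its genes were higher and 2 lower (47.1% and 11.8%, against 14.6% and 7.7% of all clusters). The lower ones were Icam1 and Sele, both adhesion genes (differences -0.79 and -1.10, adjusted p = 0.15 and 0.10). The list median was 0.50, and 0.33 after quantile normalization. Saa3, an acute phase apolipoprotein, was at 11.13 and 11.63 against 8.84 and 9.41 (difference 2.26, adjusted p = 0.079), and the pentraxin Ptx3 at 7.90 and 7.88 against 6.47 and 6.49 (difference 1.41, adjusted p = 0.064). Of 14 cytokines outside the naming rule none was called. At an unadjusted p under 0.05, 1 was higher and 1 lower (7.14% each, against 14.6% and 7.7% of all clusters). Their median was 0.11 (-0.02 after quantile normalization). Kitl, the ligand of Kit, was at 4.70 and 3.997 against 5.84 and 6.00 (difference -1.57, adjusted p = 0.11).

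**Figure D5:**
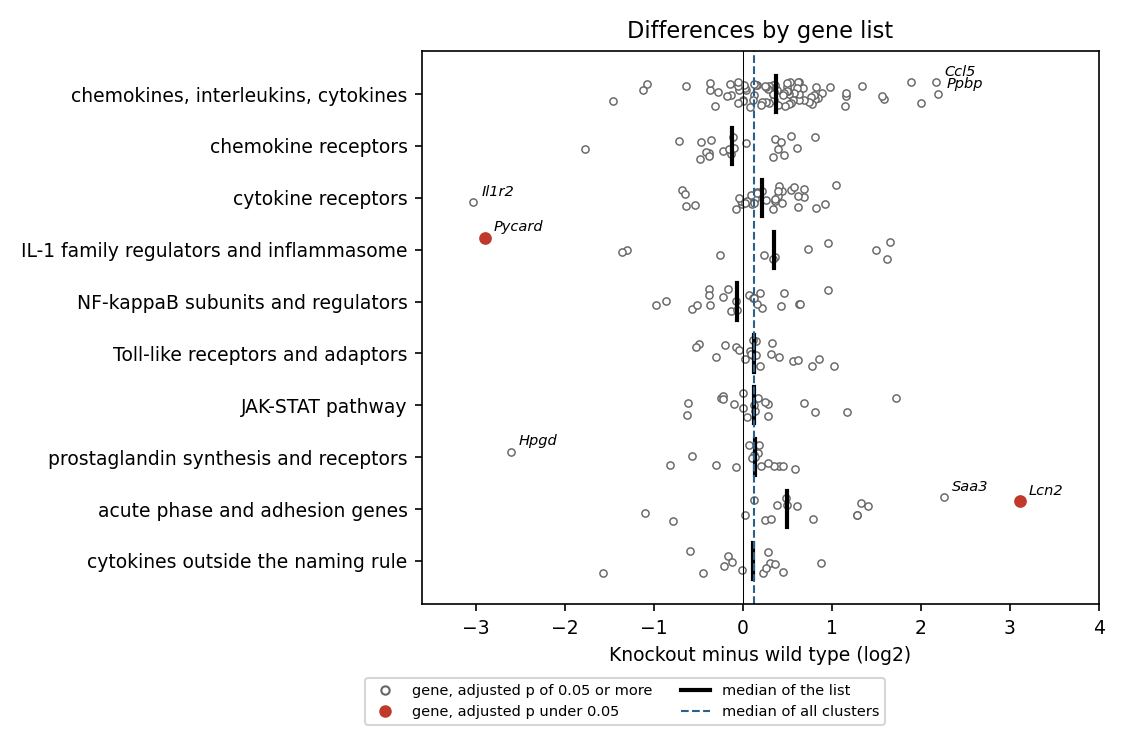
Log2 differences (knockout minus wild type) of the 82 genes and of the 9 lists of related genes, 1 point per gene with random vertical spread. Black bars are list medians, the dashed line is the median of all clusters (0.12), and red points, Pycard and Lcn2, are the genes with an adjusted p under 0.05.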

How the data were processed

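The deposited table holds log2 intensities, 1 value per transcript cluster and array. Values from 0.79 to 13.9 fit a log2 scale. The submitters' processing notes name Partek, Affymetrix Expression Console and build mm9, with no version, summarisation or normalization. GEO's platform annotation gave 1 symbol to 14996 of 23332 clusters, several to 1019 and none listed for 7317; only clusters with 1 symbol were named. Clusters whose several symbols include a chemokine were left out, and cross-hybridisation between similar chemokines was not assessed.

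The comparison used lmFit and eBayes (limma 3.58.1, R 4.3.3; two-sided, no covariates, no filter, 2 residual and 2.2 prior degrees of freedom), with Benjamini-Hochberg adjustment over all clusters. The fit was tested on simulated data. A difference is in log2 units, a fold is 2 to its power, and intervals are limma's 95% intervals. The members and lists were chosen with earlier results of these data known. Named genes were the 14 largest differences in each direction without overlap (5 existed among the lower), the 12 highest means and 22 chosen by name. Of each list, the calls and the 3 largest differences were named. Ccl3, Ccl4, Cxcl9, Cxcl10, Cxcl13, Cxcl14, Il2, Il5, Il15, Il16, Il17c, Il34, Il7r, Il1rn, Il1f8, Aim2, Cd53, Cd68, Icam1, Krt20, Pecam1, Ptprc and Sele were added after their values were seen. Alternatives were quantile and cyclic loess normalization, filters on dim clusters, an intensity trend, a replicate block, cluster averaging and leaving out each array. The olfactory receptor guide was chosen after the data were seen.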

Additional observations from a re-analysis of the deposited data

How the results depend on the processing

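No member was called under 9 of the 11 alternatives. Tslp was the 1 member called higher after the dimmest 25% of clusters were left out and with an intensity trend. Calls rose over all clusters too. Those called higher were 126 of 17499 with that filter and 114 of 23332 with the trend, against 33 of 23332 as reported. The knockout values of Tslp raised the mean by which that filter kept it, so no conclusion is drawn from the filtered call. The members higher at an unadjusted p under 0.05 numbered 19 as reported, 11 after quantile normalization, 12 after cyclic loess, 5 after clusters below the median level were left out, where 15 members were tested, and 4 to 29 when 1 array was left out. Those lower numbered 3 as reported, 0 without clusters below the median, and 2 to 6 with 1 array left out. Under that filter 3 members were at least 2-fold higher and 0 at least 2-fold lower without overlap. Of all clusters kept by it, 11.5% were higher and 13.5% lower at an unadjusted p under 0.05. The 15 members tested were those above the guide, and the knockout values of Csf1 and Il34 raised the means that kept them. No conclusion is drawn from the member counts under that filter, or from the member median of 0.624 under it. The member median of 0.37 was 0.195 after quantile normalization, 0.204 after cyclic loess, 0.624 without clusters below the median and 0.296 to 0.439 with 1 array left out. Of 38 named members, 31 kept their sign under every alternative that tested them. After quantile normalization and cyclic loess the differences were -0.219 and -0.238 for Tnf, -0.251 and -0.254 for Il1b and -0.121 and -0.147 for Ccl20. With 1 array left out they ran from -0.089 to 0.315 for Tnf, -0.387 to 0.405 for Il1b, -0.087 to 0.351 for Ccl20, -0.128 to 0.016 for Tnfsf11, -0.201 to 0.500 for Nfkbia, -0.808 to 0.737 for Il33 and -0.677 to 1.117 for Cxcl2. The causes were not tested. By their labels, same-numbered arrays shared only a number. The correlation of their deviations from the group means was 0.019 over all clusters, which cannot exclude a shared preparation that affects part of the genes. With the replicate block 16 members were higher and 3 lower at an unadjusted p under 0.05, against 12.8% and 6.56% of all clusters, and no cluster was called. Each member had 1 cluster, so averaging clusters moved no member. The 2 arrays per group limit precision, as does low signal over background for the dim members.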
